A study of Mus musculus with 6 samples.

Results

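The aquaporin probes of a mouse gene expression array were followed in organoids of the esophagus and of the stomach. They comprise every probe named *Aqp1*, *Aqp3*, *Aqp4*, *Aqp5*, *Aqp7*, *Aqp8*, *Aqp9* or *Aqp11*, and 1 probe that carries only its own number, A_55_P2089219, and lies next to *Aqp5*. This gave 13 probes under 9 of the 34298 names on the array, 12 of them for the 8 aquaporin genes. All were selected from results of the comparison described here, the unnamed probe for one of the larger differences toward the stomach, so their levels and tissue differences are given as a description, with no p-value. Where one of them is said to be called, this gives its side of a threshold applied to the whole array and supports nothing about the chosen probes.

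Both groups were epithelial organoids at passage 0, all 6 marked as Control in their titles and labelled with the same 3 mouse numbers (1, 2 and 4) and measured on 1 single-color Agilent array each, 3 arrays per tissue. The methods name wild-type C57BL/6 females as the wild-type animals, and the labels give neither strain nor age for these mice. All organoids were harvested on day 8, except the stomach organoids of mouse 4, harvested on day 7. Esophageal organoids were started from dissociated cells and stomach organoids from glands of the corpus. EGF, noggin, FGF-10, N-acetyl-L-cysteine, nicotinamide, a TGF-β receptor kinase inhibitor, a ROCK inhibitor, B27 and N2 were in both media. The stomach medium also held WNT3A- and R-spondin1-conditioned medium and gastrin, and the esophagus medium held forskolin, which raises cyclic AMP. Tissue, starting material and medium cannot be told apart in these arrays.

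Aquaporins are membrane channels that let water follow an osmotic gradient across an epithelium. Some members, the aquaglyceroporins, also pass glycerol, and several pass hydrogen peroxide. In stratified squamous epithelia AQP3 is the usual member, whereas AQP5 is best known from the apical membrane of secretory gland cells and AQP4 from the basolateral membrane of gastric parietal cells.

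Levels are the deposited log2 values, background corrected and quantile normalized. A probe was taken as measured on an array where the scanner software marked it well above background, and is described as below background where it did not. A probe was called when its limma p-value, adjusted over all 55681 probes, was under 0.05 and the tissues differed at least 1.5-fold. Differences are esophagus minus stomach. Between 45.5% and 51.1% of the spots of an array were well above background, and no spot was saturated. Squamous and columnar markers followed the labels, with 7 of 8 squamous markers called higher in the esophagus and 6 of 6 columnar markers in the stomach by the brightest probe of each gene. The exception was *Trp63*, the squamous master regulator, whose brightest probe was called higher in the stomach (log2 difference -1.22), a call lost without mouse 1 or mouse 2 of either tissue. Its other 3 probes were below background on every stomach array. They were higher in the esophagus by bounds that ran from at least 49.6-fold to at least 299-fold in the deposited values. For the probes at these 2 ends the log2 difference ran from 4.63 to 8.83 and from 7.10 to 11.43 over the settings tried.

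The probes at *Aqp5* carry the largest of these differences. The last 30 bases of both *Aqp5* probes and the first 30 bases of the unnamed probe are shown 5′ to 3′ because the 3 lie in a row on the plus strand of chromosome 15, with the letters AATAAA, the usual polyadenylation signal, in capitals.
*Aqp5* probe A_55_P2071236: gccagaggaggactgggaagatcatagaga
*Aqp5* probe A_55_P1990121: ttatttctggttaagatggggcggaggatg
A_55_P2089219: tattcgggttgggcgtttcccAATAAAcca
These stretches lie at chr15:99424685-99424714, chr15:99425168-99425197 and chr15:99425214-99425243 of mm9, the build of the array files. The starts of the 2 *Aqp5* probes are 483 bases apart on the genome and 483 bases apart in the transcript they were designed on (NM_009701, positions 945 and 1428). The unnamed probe begins after a gap of 16 bases on the same strand. No other 60-base probe has the same sequence. AATAAA stands at base 22 of the unnamed probe and in neither *Aqp5* probe. It also stands in the *Aqp1* probe (base 45) and in *Aqp8* probe A_55_P2318584 (base 41). Of the 55681 probe sequences, 10.1% hold it when read in the probe's own direction.

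Of the 13 probes, 1 was called higher in the esophagus, against 5.84% of all probes on the array, and 8 were called higher in the stomach, against 6.15%. Since these values chose the probes, nothing is read from the counts. The 9 called probes represent *Aqp3* on the esophageal side and *Aqp1*, *Aqp4*, *Aqp5*, *Aqp11* and A_55_P2089219 on the stomach side. Their esophageal and stomach levels did not overlap, which also held for 28.6% of the array, taken over 55641 probes that had values throughout, above background or not. The median difference was -2.79 over the 13 probes and 0.02 over all probes. No probe of *Aqp7*, *Aqp8* or *Aqp9* was called. Each array holds RNA of whole organoids, so that fewer cells of a type and less RNA per cell cannot be told apart.

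**Figure D1:**
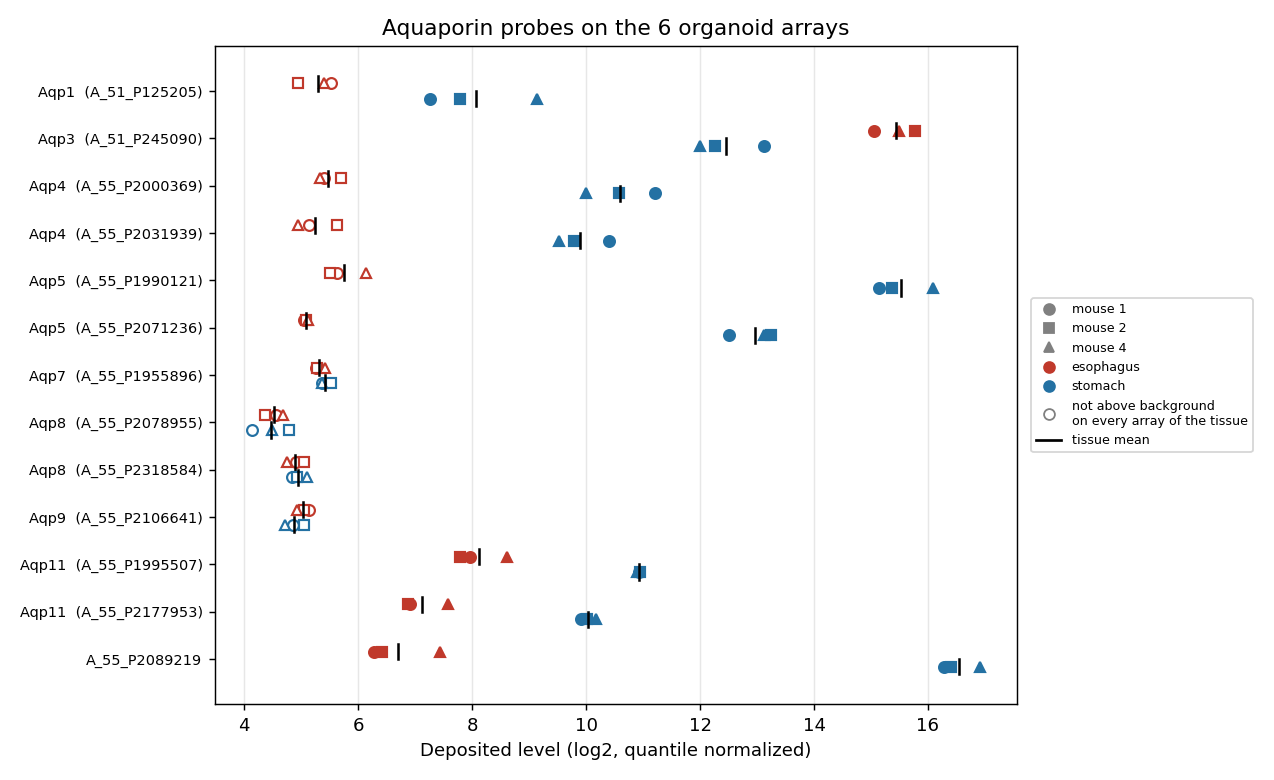
Deposited log2 level (horizontal axis) of each of the 13 probes on the 6 arrays, with esophagus in red, stomach in blue, mouse 1 as circles, mouse 2 as squares and mouse 4 as triangles. Black ticks are tissue means, and open symbols mark a tissue in which the probe was not well above background on every array. Of the 9 called probes that of *Aqp3* alone lies higher in the esophagus, and the stomach levels of both *Aqp5* probes and A_55_P2089219 lie above 12 while their esophageal levels lie below 8.

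Among the water-selective channels, *Aqp5*, the secretory gland channel, was high in every stomach array. Its probe A_55_P1990121 read 15.14, 15.36 and 16.09 in stomach mice 1, 2 and 4 and 5.62, 5.50 and 6.14 in esophageal mice 1, 2 and 4. The lowest stomach array was thus 9.00 above the highest esophageal one, and in the esophagus the probe was well above background in 2 of 3 arrays. The mean levels were 15.53 ± 0.49 and 5.75 ± 0.34 (SD, n = 3 each), a difference of -9.78 ± 0.28 (SE), or 877-fold. Over the settings tried this difference ran from -10.81 to -9.00. The raw spot brightness before any correction was 20700 to 78900 in the stomach and 55.2 to 71.8 in the esophagus.

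The second *Aqp5* probe, A_55_P2071236, gave the same direction. It read 12.51, 13.25 and 13.12 in stomach mice 1, 2 and 4, and 5.04, 5.08 and 5.12 in esophageal mice 1, 2 and 4. None of the esophageal arrays was well above background, so the esophageal level is only a bound. In the deposited values the stomach level of *Aqp5* by this probe exceeded it at least 233-fold. This size depends on the background correction, and the difference ran from -10.21 to -6.77 over the settings tried. The *Aqp5* probes ordered the mice differently, with mouse 4 highest in the stomach by A_55_P1990121 and mouse 2 by A_55_P2071236.

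*Aqp4*, the parietal cell channel, was also higher in every stomach array. Probe A_55_P2000369 read 11.21, 10.57 and 9.99 in stomach mice 1, 2 and 4, and 5.40, 5.69 and 5.33 in the esophageal arrays of the same mice. Probe A_55_P2031939 read 10.41, 9.78 and 9.52 in the stomach and 5.13, 5.62 and 4.95 in the esophagus. Both probes put the stomach mice in the same order, with mouse 1 highest, and in the esophagus mouse 2 was the only array well above background. The differences were -5.12 ± 0.30 and -4.67 ± 0.27 (SE). With 2 of 3 esophageal arrays below background these sizes depend on the background correction, and they ran from -6.34 to -4.22 and from -6.49 to -3.78 over the settings tried. Of 5 parietal cell markers, limma called 1, and 2, *Atp4a* and *Kcne2*, had an unadjusted p below 0.05. *Kcne2* was not called, and its log2 difference ran from -1.63 to -0.31 over the settings tried. *Atp4a*, the proton pump's catalytic subunit, had a mean of 6.06 in the stomach and stayed below background in the esophagus, a difference of at least 1.94-fold (adjusted p = 0.0177, limma). This call was lost without stomach mouse 2 and with a 2-fold minimum. The *Atp4a* log2 difference ran from -3.22 to -0.61 over the settings tried. *Atp4b*, its other subunit, and *Slc26a7*, an anion exchanger, were well above background on none of the 6 arrays. The summed level of the 5 markers on the linear scale was 2260 to 4260 in the stomach and 1460 to 2730 in the esophagus. It includes *Slc4a2*, an anion exchanger made by many cell types, with means of 11.53 and 11.01. The parietal markers' part in the *Aqp4* difference was not tested.

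*Aqp1*, the water channel of red cells and capillary endothelium, was higher in the stomach, with a wide spread between mice. It read 7.26, 7.78 and 9.13 in stomach mice 1, 2 and 4 against 5.52, 4.95 and 5.40 in the esophagus, where 2 of 3 arrays were well above background. The stomach organoids of mouse 4, harvested on day 7, stood 1.35 above the next array. The difference was -2.77 ± 0.44 (SE), or 6.80-fold, and -2.23 without stomach mouse 4. The call was lost with background-subtracted intensities that were quantile normalized, where the difference was -3.92. Of 5 red blood cell markers, 4 stayed below background throughout, the globin genes *Hba-a1* and *Hbb-b1* among them. Of 6 endothelial markers, limma called none and 1, *Cdh5*, had an unadjusted p below 0.05, while *Cdh5*, *Emcn* and *Cldn5* stayed below background throughout. *Pecam1* and *Kdr* were above background on all 6 arrays, with means of 6.11 and 8.64 in the stomach and 5.92 and 8.89 in the esophagus. The endothelial markers summed to 568 to 601 in the stomach and 518 to 716 in the esophagus on the linear scale, most of it from *Kdr*. Their part in the *Aqp1* difference was not tested.

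*Aqp3*, the aquaglyceroporin of stratified epithelia, was the one member called higher in the esophagus. It read 15.06, 15.77 and 15.49 in esophageal mice 1, 2 and 4 and 13.13, 12.27 and 11.99 in stomach mice 1, 2 and 4. Every array of both tissues was well above background, so the stomach organoids also gave a clear *Aqp3* signal. The means were 15.44 ± 0.35 and 12.46 ± 0.59 (SD, n = 3 each), a difference of 2.98 ± 0.32 (SE), or 7.87-fold. Mouse 1 had both the lowest esophageal and the highest stomach level, and its own difference of 1.94 was smaller than the 3.50 of mouse 2 and of mouse 4.

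The other aquaglyceroporins were at or near the floor of the array. *Aqp7*, best known from adipocytes, read 5.36, 5.52 and 5.37 in the stomach and 5.25, 5.27 and 5.42 in the esophagus, and was well above background on 2 stomach arrays and no esophageal one. *Aqp7* lies beside *Aqp3* on chromosome 4 of mm9, with 59471 bases between the 2 probes. The adipocyte markers *Adipoq* and *Plin1* stayed below background throughout. Of the 4 adipocyte markers *Cidec*, a lipid droplet protein, was called, with a stomach level at least 13.3-fold higher in the deposited values (adjusted p = 5.36e-05, limma). Its log2 difference ran from -6.85 to -2.86 over the settings tried. The second *Cidec* probe differed by -0.39 and did not pass. *Fabp4*, the fatty acid binding protein of adipocytes, was above background on all 6 arrays, read 6.76, 6.49 and 10.03 in stomach mice 1, 2 and 4 and 7.24, 11.79 and 8.65 in the esophagus, and did not pass (adjusted p = 0.574, limma). *Aqp9*, the liver glycerol channel, read 4.72 to 5.05 in the stomach and 4.93 to 5.13 in the esophagus and stayed below background throughout.

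*Aqp8*, which passes water, ammonia and hydrogen peroxide, was likewise below background with both probes on all 6 arrays, at 4.13 to 5.10 in the stomach and 4.36 to 5.04 in the esophagus. No fold is given for *Aqp8* or *Aqp9*. A level below background does not show that the transcript is absent.

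*Aqp11*, an intracellular member of the endoplasmic reticulum, gave signal above background on every array. Probe A_55_P1995507 read 10.92, 10.94 and 10.90 in stomach mice 1, 2 and 4 and 7.97, 7.79 and 8.61 in esophageal mice 1, 2 and 4. Probe A_55_P2177953 read 9.91, 10.02 and 10.17 in the stomach and 6.90, 6.88 and 7.58 in the esophagus. The stomach arrays lay within 0.04 and 0.27 of each other, whereas esophageal mouse 4 stood above the other two with both probes. The differences were -2.79 ± 0.22 and -2.91 ± 0.22 (SE), or 6.93-fold and 7.53-fold. The array of esophageal mouse 4 was the only one on its slide, and without it the differences were -3.04 and -3.14.

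The unnamed probe next to *Aqp5* was likewise high in every stomach array and low in every esophageal one. A_55_P2089219 read 16.29, 16.41 and 16.92 in stomach mice 1, 2 and 4 and 6.27, 6.41 and 7.43 in esophageal mice 1, 2 and 4. Unlike both *Aqp5* probes it was well above background on every esophageal array, and the lowest stomach array was 8.86 above the highest esophageal one. The means were 16.54 ± 0.33 and 6.70 ± 0.63 (SD, n = 3 each), a difference of -9.84 ± 0.33 (SE), or 913-fold, and -10.2 without esophageal mouse 4. Raw brightness was 43100 to 146000 in the stomach and 86.0 to 177 in the esophagus. Mouse 4 was highest in both tissues, as it was for the nearer *Aqp5* probe.

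**Figure D2:**
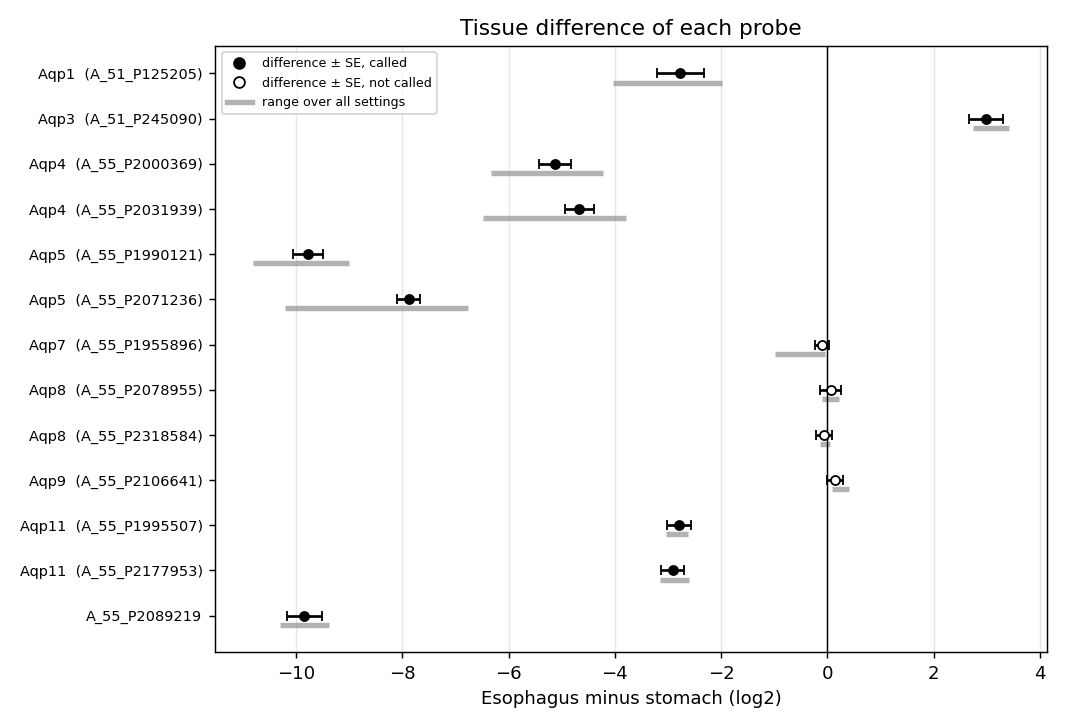
Esophagus minus stomach difference (log2, horizontal axis) of each probe with its SE over 3 arrays per tissue, filled where called. Gray bars give the range of the difference over the reported values and 12 other settings of background correction, scaling, blocking and left-out arrays, which stays on one side of 0 for the 9 called probes.

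The arrays of both tissues carry the same mouse numbers in the labels and were set against each other by number. Since the levels of the 9 called probes did not overlap between tissues, the sign of these differences was fixed and only their size is described. The within-mouse difference of A_55_P2089219 was -10.02, -10.00 and -9.48 in mice 1, 2 and 4, and that of the adjoining *Aqp5* probe was -9.52, -9.86 and -9.95. *Aqp1* had the widest spread, at -1.74, -2.82 and -3.73.

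**Figure D3:**
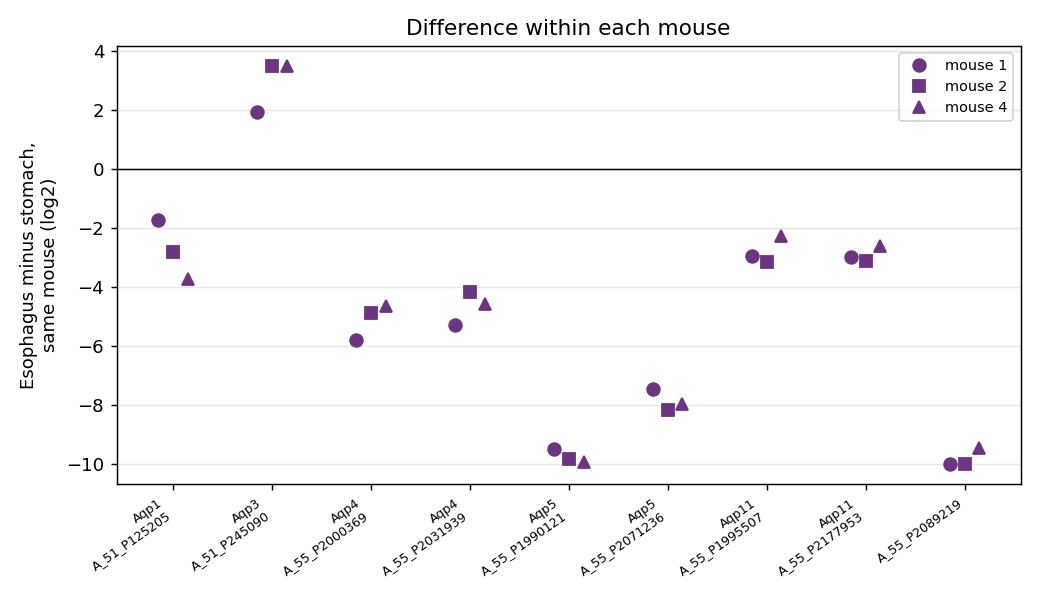
Esophagus minus stomach difference within each mouse (log2, vertical axis) for the 9 called probes, with mouse 1 as circles, mouse 2 as squares and mouse 4 as triangles. *Aqp3* lies above 0 in all 3 mice, from 1.94 to 3.50, and the other 8 probes lie below 0 in all 3, as levels that do not overlap require.

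Likeness of pattern was measured as the root mean square difference of log2 profiles centered on their mean over the 6 arrays, against 25827 other probes that were well above background throughout at least 1 tissue. Between members, A_55_P2089219 and *Aqp5* probe A_55_P1990121 differed by 0.211, less than the 0.260 to the closest other gene name, *0610040J01Rik*. The 2 probes of *Aqp5* differed by 0.999 from each other, with the esophageal side of A_55_P2071236 below background. Those of *Aqp11* differed by 0.114 and those of *Aqp4* by 0.266. The names closest to A_55_P1990121 were *0610040J01Rik* (0.268), *Ugt2b34* (0.276), *Hnf4a* (0.288), *Agr2* (0.303) and *Lrg1* (0.349), and 4 of these 5 were also among the 5 closest to A_55_P2089219. For *Aqp3* the closest were *Tns1* (0.226), an unnamed interval on chromosome 12 (0.256), *Ssbp2* (0.257), *Twist2* (0.260) and *Dsc3* (0.271). For *Aqp4* they were *Kbtbd11* (0.206), *Cyp2d26* (0.233), *Kcnk10* (0.252), an unnamed interval on chromosome 12 (0.254) and *Arhgef40* (0.259). For *Aqp11* they were *Capsl* (0.088), *Pdia5* (0.110), an unnamed interval on chromosome 3 (0.113), *Chpt1* (0.127) and *Ang3* (0.128). For *Aqp1* they were *Plcb1* (0.236), *Il5ra* (0.245), *Capn6* (0.272), *Prr18* (0.282) and *Mep1b* (0.288). These profiles share the tissue contrast that chose the members, so the values describe likeness over 6 arrays only.

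*Aqp5* lies in a cluster of family members on chromosome 15. Distances here are to the nearest probe of a gene, not to the ends of the gene. Every probe within 100 kb of A_55_P2089219 was read. *Aqp2*, the vasopressin-regulated channel of the kidney collecting duct, lies 11659 bases before it and read 6.41, 7.27 and 6.80 in stomach mice 1, 2 and 4 and 5.71, 6.26 and 5.75 in the esophagus. It was well above background on all 6 arrays but did not pass the test (difference -0.91 ± 0.26 SE, adjusted p = 0.06, limma). *Aqp2* was called in 5 of 17 other settings, among them the mouse number as replicate block. Its differences within mice 1, 2 and 4 were -0.69, -1.01 and -1.04. *Aqp6*, an anion-conducting member from kidney, stayed below background with both of its probes, the nearer of them 9405 bases past the unnamed probe. *Racgap1*, a regulator of cytokinesis 26444 bases past it, had means of 9.94 and 10.22 in the stomach and 9.91 and 9.97 in the esophagus by its 2 probes, and neither passed the test (adjusted p = 0.976 and 0.806, limma). *Faim2*, an inhibitor of Fas-induced death 97718 bases before the unnamed probe, had a stomach level at least 2.68-fold higher in the deposited values (adjusted p = 0.00122, limma). The *Faim2* log2 difference ran from -4.08 to -0.94 over the settings tried. *C79122* and *CF535018* stayed below background throughout.

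**Figure D4:**
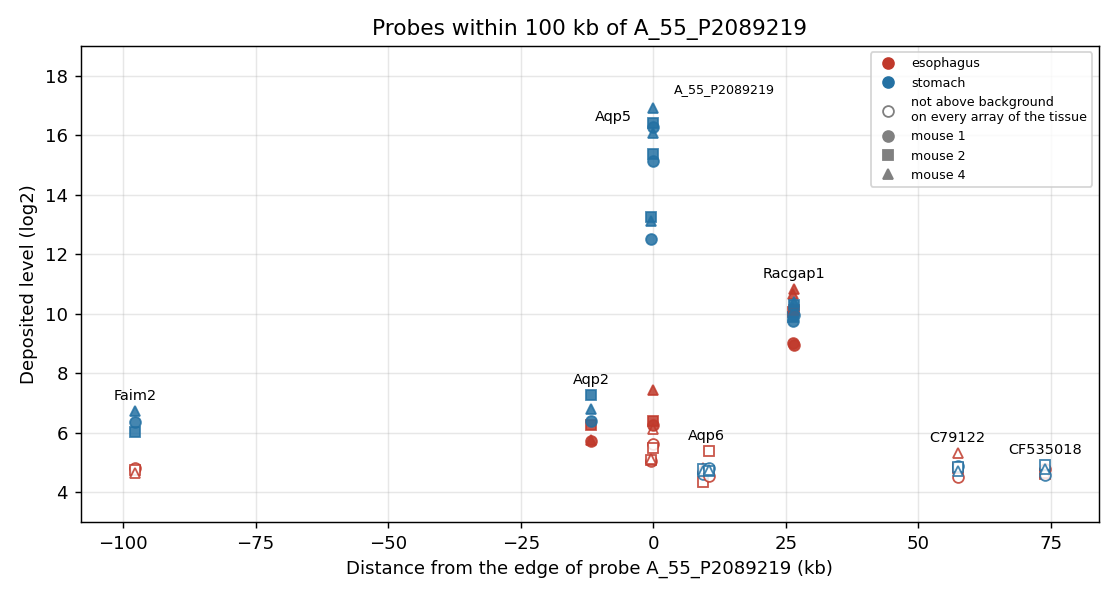
Deposited log2 level (vertical axis) on each array of the probes within 100 kb of A_55_P2089219, by distance from its edge in kb along the strand it lies on. Stomach (blue) and esophagus (red) separate by more than 7 only at both *Aqp5* probes and A_55_P2089219, while *Racgap1* is near 10 in both tissues and *Aqp6* is below background in both.

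The 250 bases before the RefSeq start of *Aqp5* and of *Aqp3* are shown 5′ to 3′ since these genes stand on opposite sides of the comparison. Capitals mark matches, on either strand, to GGGCGG, which is the core sequence recognized by SP1. They also mark matches to TATAAA, the sequence recognized by the TATA-binding protein.
*Aqp5*: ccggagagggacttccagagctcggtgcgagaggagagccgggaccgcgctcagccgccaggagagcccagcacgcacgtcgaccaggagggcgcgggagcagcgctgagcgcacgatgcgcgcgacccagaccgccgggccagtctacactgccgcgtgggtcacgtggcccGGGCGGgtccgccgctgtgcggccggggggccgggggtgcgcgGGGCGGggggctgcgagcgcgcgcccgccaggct
*Aqp3*: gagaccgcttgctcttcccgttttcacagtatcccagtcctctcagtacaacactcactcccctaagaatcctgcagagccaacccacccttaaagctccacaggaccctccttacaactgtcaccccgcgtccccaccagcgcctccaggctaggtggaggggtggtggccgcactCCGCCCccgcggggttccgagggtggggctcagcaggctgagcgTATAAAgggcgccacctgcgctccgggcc
They lie at chr15:99590778-99591027 on the plus strand and chr4:41098184-41098433 on the minus strand of GRCm38.p6, a later build than that of the array. GGGCGG was found at 77 and 34 bases before the start of *Aqp5* and at 73 bases before that of *Aqp3*, and 32.7% of the 32851 promoter windows of this length hold it on either strand. TATAAA was found 29 bases before the start of *Aqp3* and not in the window of *Aqp5* (12.4% of windows). TGACGTCA, the cyclic AMP response element, was in neither (1.55% of windows), nor was TGAGTCA or TGACTCA, which were searched together (4.46%). CACGTG, not marked above, was found 87 bases before the start of *Aqp5* and not in the window of *Aqp3* (6.02% of windows). The *Aqp5* window holds 38 CG dinucleotides and the *Aqp3* window 14, against a median of 6. Windows were found for 7 of the 8 aquaporin genes. A match describes the letters and is no evidence of binding.

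Genes that work beside aquaporins were read from 5 lists of 73 genes, each by its brightest probe. Of these, 12 were called with the higher level in esophagus and 11 with the higher level in stomach, against 5.84% and 6.15% of all probes on the array. With dim probes filtered out, 3381 and 3533 of 25859 probes were called in these directions, and 12 list genes in each. None of the other aquaporin family genes on the array (*Mip*, *Aqp2*, *Aqp6* and *Aqp12*) was called by limma (1, *Aqp2*, at an unadjusted p below 0.05), with list median 0.14 against 0.02 over all probes. *Aqp12*, a pancreatic member, was above background on 3 of 6 arrays, and *Mip*, the lens channel, on none.

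Of 19 genes of cell volume and the osmotic response, 5 were called higher in the esophagus, 2 higher in the stomach and 12 did not pass the test (list median 0.01). *Trpv4*, a cation channel opened by cell swelling, read 11.04, 10.55 and 10.66 in esophageal mice 1, 2 and 4 and 5.51, 5.19 and 5.98 in the stomach, where 2 of 3 arrays were above background, a difference of 5.19 ± 0.24 (SE, adjusted p = 5.93e-06, limma). Potassium-chloride cotransporters, which shrink swollen cells, went both ways. *Slc12a4* was 2.17 ± 0.15 higher in the esophagus (adjusted p = 6.26e-05, limma), and *Slc12a7* was 9.72-fold higher in the stomach (difference -3.28 ± 0.22, adjusted p = 4.56e-05, limma). A second *Slc12a7* probe differed by -0.48 and did not pass.

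Of 13 genes of glycerol handling, 1 was called higher in the esophagus, 4 higher in the stomach and 8 did not pass (list median -0.08). *Gpd1*, which links glycerol 3-phosphate to glycolysis, read 12.24, 12.06 and 11.53 in stomach mice 1, 2 and 4 and 5.07, 6.44 and 5.84 in the esophagus, 2 of these 3 above background (difference -6.16 ± 0.35, adjusted p = 1.96e-05, limma). *Lipe*, hormone-sensitive lipase, had a stomach level at least 34.1-fold higher in the deposited values (adjusted p = 1.06e-05, limma). Over the settings tried this log2 difference ran from -8.23 to -4.14, and the other *Lipe* probe differed by 0.40 and did not pass. *Pnpla2*, adipose triglyceride lipase, was 2.87-fold higher in the stomach (adjusted p = 0.000689, limma). *Lpl*, lipoprotein lipase, was the gene called on the esophageal side (difference 1.11 ± 0.20, adjusted p = 0.0089, limma). *Mgll*, monoglyceride lipase, had means of 6.74 and 6.61 in esophagus and stomach and did not pass (adjusted p = 0.939, limma). Without stomach mouse 4, *Gpam* was called beside *Lpl* on the esophageal side, and without esophageal mouse 4, *Dgat2* was. On the stomach side, *Gpd1l* was added without esophageal mouse 4 and *Plin2* without esophageal mouse 1. Of 17 other settings, *Dgat2* was called in 4, *Gpd1l* in 3, and *Gpam* and *Plin2* in 1 each. *Gk*, glycerol kinase, had means of 9.19 and 9.14 in esophagus and stomach (adjusted p = 0.951, limma).

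Of 20 genes of hydrogen peroxide handling, 2 were called higher in the esophagus, 3 higher in the stomach and 15 did not pass (list median -0.15). *Duox1*, a dual oxidase that makes peroxide at the cell surface, read 11.17, 11.34 and 9.58 in esophageal mice 1, 2 and 4. It stayed below background in the stomach, a difference of at least 50.8-fold in the deposited values (adjusted p = 9.47e-05, limma). The log2 difference of *Duox1* ran from 4.63 to 8.30 over the settings tried. *Duoxa1*, the maturation factor of *Duox1*, was 43.8-fold higher in the esophagus (difference 5.45 ± 0.33, adjusted p = 2.91e-05, limma), with 2 of its 3 probes called and the other at -0.82. *Duox2*, the second dual oxidase, was on the stomach side by the brighter of its 2 probes (difference -3.46 ± 0.32, adjusted p = 0.000274, limma). On 1 of 3 esophageal arrays it was above background. Its difference ran from -5.38 to -2.57 over the settings tried. *Duoxa2* read 13.01, 7.17 and 6.05 in esophageal mice 1, 2 and 4 and 13.56, 13.49 and 13.39 in the stomach. It did not pass (difference -4.73 ± 1.56, adjusted p = 0.103, limma). *Duoxa2* was called in 2 of 17 other settings, 1 of them without esophageal mouse 1. *Cyba*, the p22phox subunit of other NADPH oxidases, was higher in the stomach (difference -6.68 ± 0.21, adjusted p = 8.67e-07, limma). Its esophageal level was above background on 1 of 3 arrays, and the difference ran from -8.25 to -5.78 over the settings tried.

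Of 17 genes of the cyclic AMP response, 4 were called higher in the esophagus, 2 higher in the stomach and 11 did not pass (list median 0.13). Of the 4, *Creb1*, *Sik1* and *Prkar1a* lost the call without stomach mouse 1, without stomach mouse 2 or without esophageal mouse 2, which left 1 gene, *Pde4b*, and without esophageal mouse 4 the count was 2. *Pde4b*, a cyclic AMP phosphodiesterase, had an esophageal level at least 9.55-fold higher in the deposited values (adjusted p = 0.000559, limma), with 3 of its 4 probes called. By its brightest probe the log2 difference ran from 2.34 to 6.15 over the settings tried. Its paralogs *Pde4a* and *Pde4d* were 6.80-fold and 2.78-fold higher in the stomach (adjusted p = 0.000186 and 0.00511, limma). Both *Pde4a* probes but 2 of 4 *Pde4d* probes were called, and the *Pde4d* differences reached 0.08. *Nr4a1*, an early target of cyclic AMP, read 10.37, 14.10 and 8.63 in esophageal mice 1, 2 and 4 and 10.49, 10.64 and 12.07 in the stomach. It did not pass the test (difference -0.03 ± 1.23, adjusted p = 0.991, limma). The esophageal arrays lay on both sides of the stomach ones, and the difference ran from -1.57 to 1.17 over the settings tried, so the spread between mice leaves its direction unsettled. Forskolin was in the esophagus medium only, and its part in these values was not tested.

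**Figure D5:**
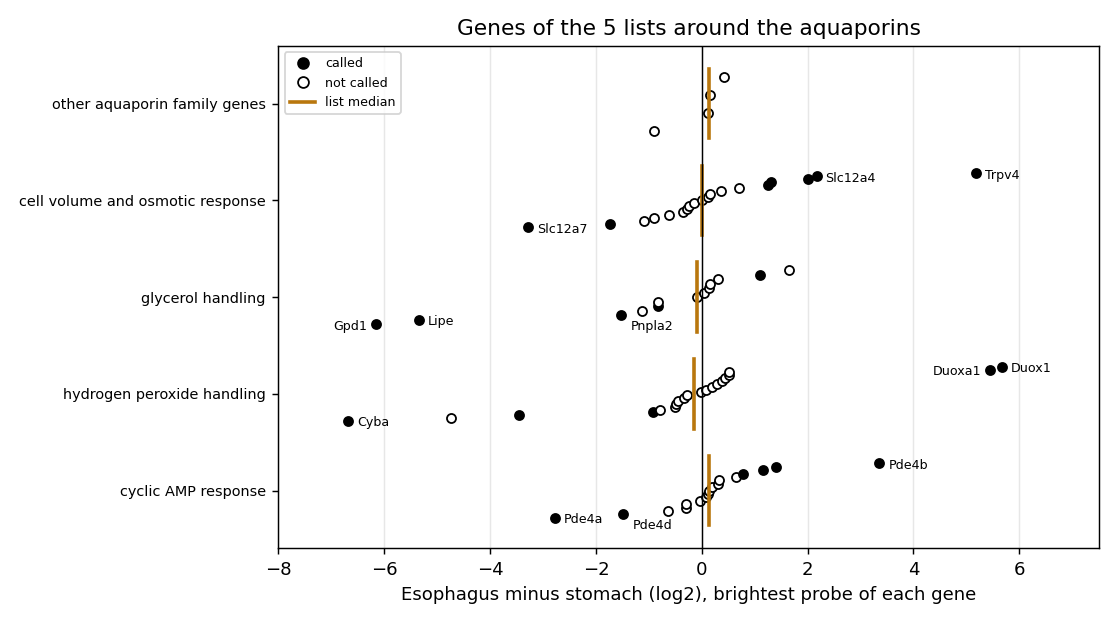
Esophagus minus stomach difference (log2, horizontal axis) of the brightest probe of each of 73 genes in 5 lists, filled where called, with list medians as brown bars. The medians lie between -0.15 and 0.14, with called genes on both sides of 0 in 4 of the 5 lists.

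Most markers of pit, neck and chief cells were called higher in the stomach, and 1 of 5 parietal cell markers was. These calls rest on the same tissue contrast that chose the aquaporins. All 4 pit cell markers and 4 of 5 neck and chief cell markers were called higher in the stomach, among them *Tff1* and *Gkn2* of pit cells and *Tff2* and *Pgc* of neck and chief cells. The pit cell markers summed to 361000 to 446000 in the stomach arrays and 125 to 150 in the esophageal ones on the linear scale, and the neck and chief cell markers to 212000 to 251000 and 129 to 138. The 8 squamous markers summed to 413000 to 491000 in the esophagus and 1890 to 3480 in the stomach. Limma called no gene among 5 immune, 8 fibroblast and smooth muscle and 5 skeletal muscle markers, of which 1, 0 and 2 had an unadjusted p below 0.05. Without esophageal mouse 4, 1 immune marker, *Cd68*, was called. Of the skeletal muscle markers, *Acta1* was called higher in the stomach in 3 other settings of background correction and scaling, and *Mb* in 1 of these. The part of cell makeup in the aquaporin differences was not tested.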

How the data were processed

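RNA of 6 organoid cultures was hybridized by the authors to single-color Agilent arrays and read with Agilent Feature Extraction 11.5.1.1. The deposited scanner files give, per the file headers, raw and background-subtracted intensity of each spot, not normalized between arrays, and flags (mm9). For the deposited log2 table, the authors corrected the background and applied quantile normalization. Normexp (offset 15) on median intensities with quantile normalization gave it back within 0.0726, and its 2029 empty cells were outlier-marked spots, none of them a member's. Adjustment of p-values is not given in the sources used here.

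In R 4.3.3 with limma 3.58.1, the log2 values of non-control spots were averaged per probe, and all 6 arrays entered 1 fit per probe (lmFit, eBayes) with no block. P-values were adjusted by Benjamini-Hochberg over 55681 probes. Where no array of a tissue was well above background, the fold is a bound, taking for each array the higher of the probe's value and the lowest value well above background. The number of arrays limits the precision. By their labels, arrays of both tissues share mouse numbers, which were read as the same animal. Deviations of same-mouse arrays from their tissue means correlated with r = -0.008 to 0.025, against -0.073 to 0.04 between mice.

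The members and lists were chosen with earlier results of these data known. Named genes were the members, and the 3 most changed called genes of each list that were well above background throughout a tissue. Probes within 100 kb of A_55_P2089219 and the 5 names closest in pattern were also named. *Mip* and *Aqp12* were named to complete the list of other aquaporin family genes. *Trp63*, *Gk*, *Fabp4*, *Pecam1*, *Kdr*, *Lpl*, *Mgll*, *Duox2*, *Duoxa2*, *Creb1*, *Sik1*, *Prkar1a*, *Gpam*, *Gpd1l*, *Plin2*, *Dgat2*, *Cd68*, *Acta1*, *Mb*, *Nr4a1*, *Slc4a2*, *Slc26a7*, *Kcne2* and the markers below background were named after their values were seen. Scripts were tested on simulated data. Alternatives were other background corrections and scalings, a filter on dim probes, mouse or slide as a block, eBayes with trend, other thresholds and each array left out.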

Additional observations from a re-analysis of the deposited data

How the results depend on the processing

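The 9 called member probes were the same 9 in 16 of 17 other settings, and *Aqp1* alone was lost in the other, background-subtracted intensity with quantile normalization. None of the 9 changed sign. Over 12 settings the difference ranged from -10.81 to -9.00 and from -10.21 to -6.77 for the *Aqp5* probes, -10.31 to -9.37 for A_55_P2089219, -6.49 to -3.78 over both *Aqp4* probes, -4.04 to -1.98 for *Aqp1*, -3.14 to -2.60 over both *Aqp11* probes and 2.74 to 3.41 for *Aqp3*. With the mouse number as replicate block, 9 member probes, 24 list genes and 6153 probes were called, against 9, 23 and 6675, and *Aqp2* was also called. The slide as a block amounts to leaving out esophagus replicate 4, which was alone on its slide.

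Over all probes, 10096 were called with unadjusted p-values. Leaving out 1 array gave 4091 (without stomach replicate 1) to 7415 (without stomach replicate 4), with 4152 without stomach replicate 2. List genes called ranged from 19 to 29. The median difference of all probes was 0.024 in the reported values, and with background-subtracted intensity 0.03 after quantile normalization and 0.191 after scaling to the 75th percentile, against which the called member differences stayed on the same side. *Aqp8* and *Aqp9* on all arrays, and *Aqp7* on 4 of 6, lie below what signal over background can show. Of the other genes named as called, 5 lost the call in some of 17 settings. *Atp4a* was called in 15, *Creb1* in 11, *Trp63* probe A_55_P2161055 in 10, *Sik1* in 9 and *Prkar1a* in 8. *Sik1*, *Prkar1a* and that *Trp63* probe were lost with normexp offset 50 and both background-subtracted settings, *Creb1* with background-subtracted intensity and quantile normalization, and *Creb1* and *Prkar1a* with the slide as a block.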
